A study of Mus musculus with 13 samples.

Results

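The genes described are the 9 that encode the core of interleukin-7 (IL-7) signalling and its feedback in mouse: the receptor chains Il7r and Il2rg, the kinases Jak1 and Jak3, the transcription factors Stat5a and Stat5b, and the inhibitors Cish, Socs1 and Socs2. They were chosen by name and matched through their RefSeq identifiers. All 9 were found among the 24072 identifiers of the count files, and all 9 passed the filter on low counts that left 12722 genes for testing. They were measured by RNA sequencing in common lymphoid progenitors (CLP), bone marrow cells from which lymphocytes develop, of wild-type C57BL/6 mice.

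Flow cytometry separated them by the surface proteins Ly6D and Gfra2. Ly6D+Gfra2+ cells gave 3 libraries, Ly6D+Gfra2- cells gave 4 and Ly6D-Gfra2- cells gave 6. The mice carried no engineered allele and received no agent, as far as the labels say, and their age, the gate that defined CLP and any pooling of animals are not given there. The labels do not say that replicates were separate animals, so p-values measure the spread between these libraries. Each library title has a prefix, either P or T, of unstated meaning. Prefix P marks Ly6D-Gfra2- replicates 1, 2 and 3 along with Ly6D+Gfra2- replicates 1 and 2. Prefix T marks the other 8 libraries, all 3 of Ly6D+Gfra2+ included, so the tests carried a term for the prefix.

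IL-7 is made by stromal cells of the bone marrow and binds a receptor of the IL-7 receptor alpha chain and the common gamma chain. The alpha chain carries Jak1 and the gamma chain carries Jak3, and the activated kinases phosphorylate Stat5a and Stat5b, which enter the nucleus and switch on genes of survival and growth. Among the Stat5 targets are inhibitors that bind the receptor or the kinases and damp the signal. In mice, the earliest B-lineage cells depend on this receptor, and CLP are conventionally recognised by it on their surface.

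Levels are given as CPM (counts scaled to a common library size) with TMM-scaled library sizes, and a gene was called at a Benjamini-Hochberg adjusted p under 0.05 in the edgeR quasi-likelihood test over all 12722 genes. A log2 difference between groups is the first named minus the second. A gene said to rise or fall between groups is higher or lower in the first named. Library totals ran between 6892728 and 23705975 counts, so that 3 counts in a library correspond to 0.134 to 0.389 CPM. Within prefix T, genes with a count numbered 10837 (replicate 5) to 12369 in Ly6D+Gfra2+ and 13368 to 13684 in Ly6D-Gfra2- libraries. The largest single gene took 4.4 to 7.44% and 2.65 to 3.75% of their counts. The part of this in zeros and lower levels of Ly6D+Gfra2+ cells was not tested. Gfra2 transcript was at 287 to 515 CPM in Ly6D+Gfra2+ cells, 14.7 CPM or less in Ly6D+Gfra2- cells and 5.50 CPM or less in Ly6D-Gfra2- cells. Ly6d transcript was at 171 to 283 CPM in the Ly6D+Gfra2+ group and 158 to 507 CPM in the Ly6D+Gfra2- group. Among Ly6D-Gfra2- libraries it was, in 5 of 6, at 0.623 to 8.30 CPM, but the library labelled Ly6D-Gfra2- replicate 3 held 213 CPM of Ly6d, against its label. Calls that change without that library are given with and without it, as are the levels of Il7r and Socs2. The CLP markers Flt3, Kit, Cd27, Cd93 and Ly6a had counts in every library, with Flt3 at 761 CPM or more and Ly6a at 3.38 to 43.2 CPM.

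Of the 9 genes, 8 had 10 windows of 300 bases around an annotated start (250 before to 50 after) in the RefSeq promoter table of assembly GRCm38.p6, and Socs2 had none. The windows were searched for TTCNNNGAA, the palindrome to which Stat5 is known to bind, which reads alike on both strands. It was present in 8.30% of the 32851 windows of all genes, and in 2 or more copies in 0.457%. Among the 9 genes it was found upstream of Il7r and at the start of Cish. These stretches are shown because they belong to the receptor gene and to the textbook Stat5 target. Capitals mark the motif, both read 5′ to 3′ on the strand of the gene, Il7r from chr15:9529942-9530126 on the minus strand and Cish from chr9:107296659-107296678 on the plus strand.

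Il7r: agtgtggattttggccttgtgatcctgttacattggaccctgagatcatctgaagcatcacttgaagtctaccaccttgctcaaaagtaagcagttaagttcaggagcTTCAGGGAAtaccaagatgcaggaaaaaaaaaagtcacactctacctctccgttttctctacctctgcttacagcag
Cish: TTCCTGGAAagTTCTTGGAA

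The Il7r stretch covers the 185 bases before the outermost annotated start of the gene, and its motif begins 77 bases before that start. The Cish stretch holds 2 copies within the first 20 bases of the annotated transcript. The Foxo motif GTAAACA, present in 3.65% of all windows on either strand, and the PU.1 motif GAGGAAGT, in 3.20%, were matched in none of the 10 windows. The windows of Stat5a and Stat5b lay inside these genes, so the outermost annotated starts of both were not searched for any motif. The searched motifs do not overlap one another in these 2 stretches. A match is a run of letters and no measurement of binding.

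Il7r was the member with the clearest difference, and its mean level was highest in Ly6D+Gfra2+ cells. Il7r (RefSeq transcript NM_008372, chr15:9506159-9529941, GRCm38.p6) encodes the alpha chain, which binds IL-7 and, paired with the product of Crlf2, also thymic stromal lymphopoietin (TSLP). It held 1118, 749 and 912 CPM in Ly6D+Gfra2+ replicates 4, 5 and 6. It held 542, 701, 754 and 662 CPM in Ly6D+Gfra2- replicates 1, 2, 5 and 6. In the 6 Ly6D-Gfra2- libraries the lowest, median and highest levels were 311, 416 and 658 CPM, the highest being the library labelled replicate 3. Every Ly6D+Gfra2+ library lay above every Ly6D-Gfra2- library, whereas the Ly6D+Gfra2- range overlapped the lowest Ly6D+Gfra2+ library and the highest Ly6D-Gfra2- library. Without the library labelled replicate 3, the Ly6D-Gfra2- range ended at 510 CPM, below all 4 Ly6D+Gfra2- libraries. The library left out was the only one of its group to overlap them, so this separation adds no support. The difference between these groups was not called without it (edgeR adjusted p = 0.316).

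Mean Il7r levels were 926 ± 185 CPM in Ly6D+Gfra2+ cells, 665 ± 89.9 CPM in Ly6D+Gfra2- cells and 441 ± 130 CPM in Ly6D-Gfra2- cells (SD, n = 3, 4 and 6). Between Ly6D+Gfra2+ and Ly6D-Gfra2- cells, Il7r rose by 1.19 on the log2 scale (SE 0.24, 95% interval 0.68 to 1.70), 2.29-fold, with an edgeR adjusted p of 0.0228. It was the only member called in that comparison, 1 of 9, where 1.39% of all tested genes were called, 0.928% higher and 0.464% lower. Its libraries did not overlap between these groups, as was so in either direction for 10.2% of tested genes and for no other member. Within prefix T alone, 3 libraries against 3, the log2 difference was 1.33 (edgeR adjusted p = 0.0236), where 0.487% of genes were called. It was 1.25 when the library labelled Ly6D-Gfra2- replicate 3 was left out (edgeR adjusted p = 0.0102), where 1.12% of genes were called. That library held the highest Il7r level of its group, so the smaller p without it adds no support. DESeq2 likewise called 1 member, Il7r, and 6.19% of genes. The call was lost with TMM scaling left out (0.94, adjusted p = 0.0956) and without any 1 of 4 libraries. The edgeR adjusted p was then 0.0863 without Ly6D-Gfra2- replicate 4, 0.0997 without its replicate 5, 0.0597 without its replicate 6 and 0.0593 without Ly6D+Gfra2+ replicate 4. With TMM scaling left out the median of all genes was -0.25, against 0.01 with it, and relative to that median Il7r was higher by 1.19, against 1.18 with TMM.

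The steps on either side were smaller and were not called. Il7r differed by 0.58 between Ly6D+Gfra2+ and Ly6D+Gfra2- cells on the log2 scale (SE 0.25, 95% interval 0.05 to 1.10, edgeR adjusted p = 0.334). It differed by 0.62 between Ly6D+Gfra2- and Ly6D-Gfra2- cells (SE 0.20, 95% interval 0.20 to 1.04, edgeR adjusted p = 0.807), and by 0.74 without the library labelled replicate 3 (adjusted p = 0.316). In the comparison of Ly6D+Gfra2+ with Ly6D+Gfra2- cells and in that of Ly6D+Gfra2- with Ly6D-Gfra2- cells, 0 members had groups that did not overlap, which was so for 9.71% and 1.53% of tested genes. Of the 9 members, 0 were called in each of these comparisons by edgeR and 0 by DESeq2. By edgeR, 0.409% of all tested genes (52) were called between Ly6D+Gfra2+ and Ly6D+Gfra2-, and 0% between Ly6D+Gfra2- and Ly6D-Gfra2-. DESeq2 called 4.61% (700) and 0.355% (54) of the 15190 genes it tested. At an unadjusted edgeR p under 0.05, 2 members (Il7r and Jak1) and 13.2% of genes passed in the first comparison, and 1 member (Il7r) and 4.71% of genes in the second, where 599 genes passed. The second difference was 0.95 within prefix T and 0.27 within prefix P, or 0.49 in prefix P without the library labelled replicate 3. Within prefix T, 0.00786% of genes were called in that comparison. The difference between the prefixes was 0.67 (SE 0.35, edgeR adjusted p = 0.711), and 0 of 12140 genes were called for such a difference (0%). In these bulk libraries, fewer cells carrying a transcript and less transcript per cell cannot be told apart.

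**Figure D1:**
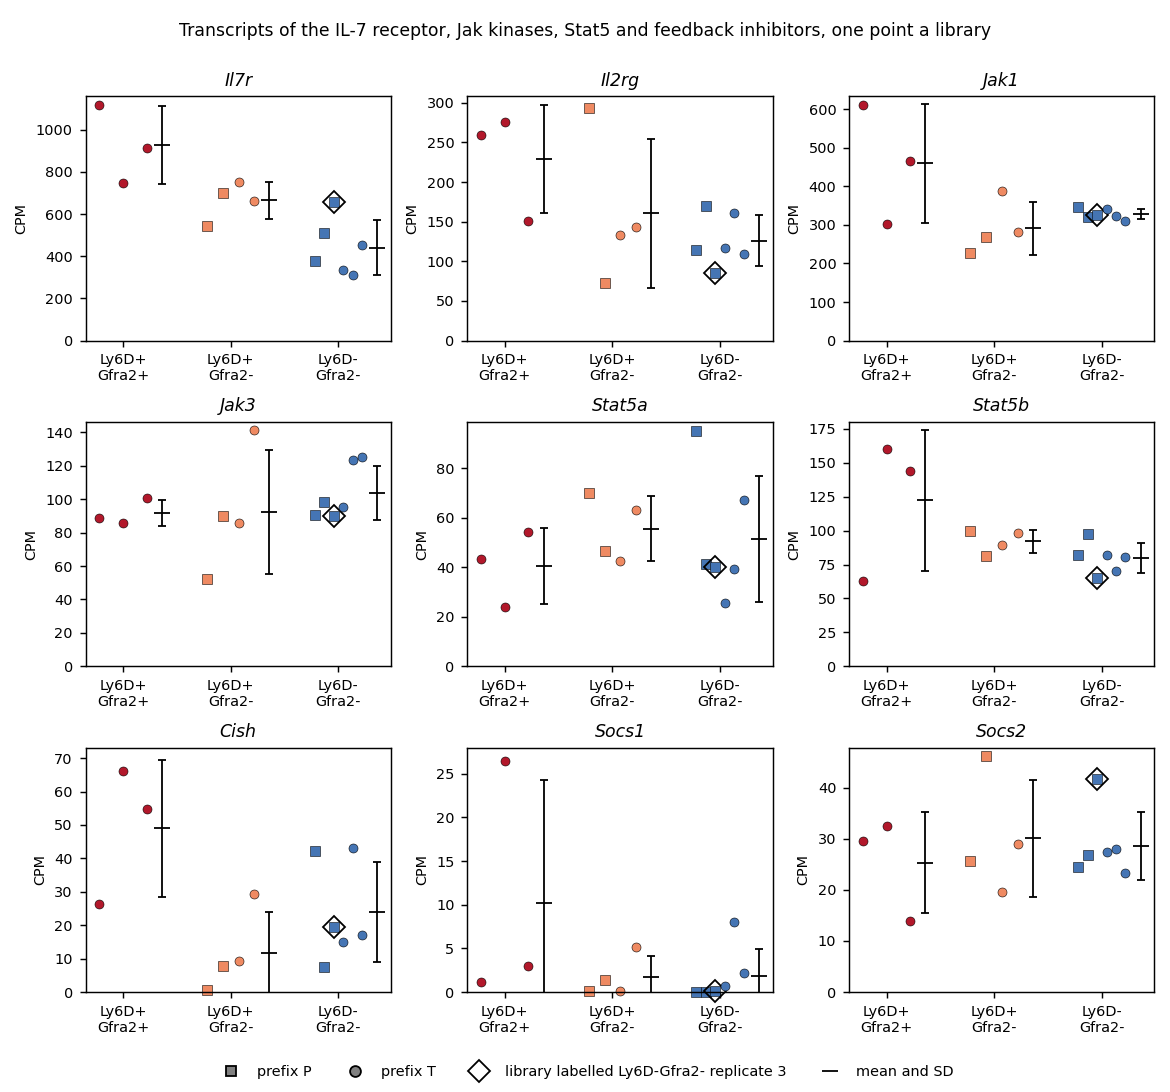
CPM of each of the 9 genes (y axis from 0, 1 panel per gene) in the Ly6D+Gfra2+, Ly6D+Gfra2- and Ly6D-Gfra2- libraries; squares are prefix P, circles prefix T, and the diamond outlines the library labelled Ly6D-Gfra2- replicate 3. Bars show the mean ± SD, ended at 0 where the SD passes it, and for Il7r the 3 Ly6D+Gfra2+ points at 749 to 1118 CPM lie above all 6 Ly6D-Gfra2- points at 311 to 658 CPM.

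Plotted against Ly6d, Il7r of the library labelled Ly6D-Gfra2- replicate 3 lay with the Ly6D+ libraries on both axes. Its 658 CPM of Il7r fell within the 542 to 754 CPM of the Ly6D+Gfra2- libraries, and its 213 CPM of Ly6d within their 158 to 507 CPM. Of the other 8 members, Socs2 was the one in which this library stood apart from its group.

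**Figure D2:**
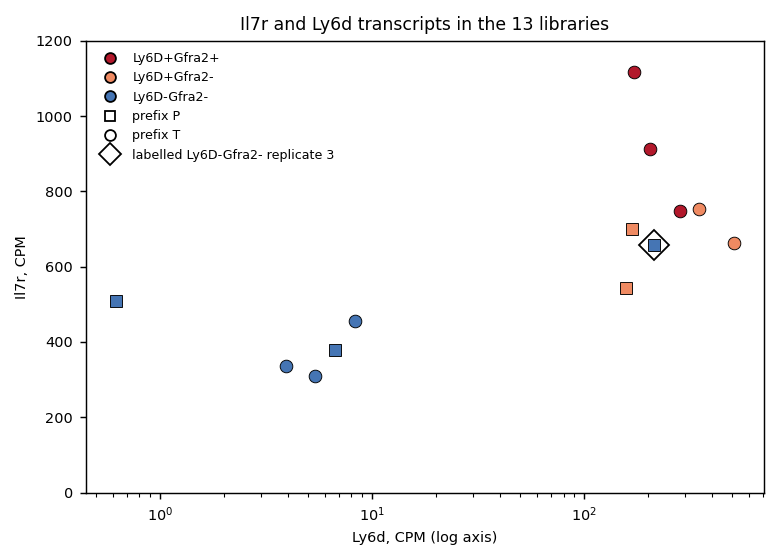
Il7r (y axis, CPM) against Ly6d (x axis, CPM on a log scale) in the 13 libraries, coloured by sorted group. The library labelled Ly6D-Gfra2- replicate 3, at 213 CPM of Ly6d, lies among the Ly6D+ libraries, and the other 5 Ly6D-Gfra2- libraries lie at 8.30 CPM or less.

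The partner chain was more variable. Il2rg (NM_013563, chrX:101264385-101268255) encodes the common gamma chain, which the IL-7 receptor shares with the receptors of several other interleukins. It held 259, 276 and 151 CPM in Ly6D+Gfra2+ replicates 4, 5 and 6, and 293, 72.6, 133 and 143 CPM in Ly6D+Gfra2- replicates 1, 2, 5 and 6. Across Ly6D-Gfra2- libraries it ran over 85.7, 115 and 170 CPM as lowest, median and highest. The 3 ranges overlapped, and Ly6D+Gfra2- replicate 1 was the highest of all 13 libraries while its replicate 2 was the lowest. Il2rg differed by 0.91 between Ly6D+Gfra2+ and Ly6D-Gfra2- cells on the log2 scale (SE 0.39, 95% interval 0.09 to 1.73), which passed at an unadjusted p of 0.0311 and not after adjustment (edgeR adjusted p = 0.271). Per kilobase of transcript, Il7r averaged 262 ± 52.2 and Il2rg 137 ± 40.7 CPM per kb in Ly6D+Gfra2+ cells. In Ly6D-Gfra2- cells they averaged 125 ± 36.6 and 75.6 ± 19.5 CPM per kb. The ratio of Il7r to Il2rg per length ran between 0.872 and 4.56 over the 13 libraries, its lowest and highest both in Ly6D+Gfra2- cells.

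Neither kinase was called in any comparison. Jak1 (NM_146145, chr4:101151974-101265282), which binds the alpha chain, held 610, 303 and 466 CPM in Ly6D+Gfra2+ replicates 4, 5 and 6. It held 226, 269, 388 and 282 CPM in Ly6D+Gfra2- replicates 1, 2, 5 and 6, and 311, 324 and 346 CPM as lowest, median and highest in Ly6D-Gfra2- libraries. The 6 Ly6D-Gfra2- libraries were the tightest group of any member relative to the mean, at 328 ± 13.4 CPM (SD, n = 6), and lay inside the range of the Ly6D+Gfra2+ libraries. Jak1 differed by 0.59 between Ly6D+Gfra2+ and Ly6D+Gfra2- cells on the log2 scale (SE 0.25, 95% interval 0.07 to 1.11, unadjusted p = 0.0296, edgeR adjusted p = 0.318). Against Ly6D-Gfra2- cells the difference was 0.41 (95% interval -0.09 to 0.91, edgeR adjusted p = 0.442).

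Jak3 (NM_010589, chr8:71676383-71690577), which binds the gamma chain, averaged 91.7 ± 7.82 CPM in Ly6D+Gfra2+, 92.3 ± 37.0 CPM in Ly6D+Gfra2- cells and 104 ± 16.3 CPM in Ly6D-Gfra2- cells (SD, n = 3, 4 and 6). Its widest spread was in Ly6D+Gfra2- cells, with 52.1 CPM in replicate 1 and 142 CPM in replicate 6. Its log2 differences lay between -0.40 and -0.20 in the 3 comparisons, with 95% intervals that all included 0. Per kilobase, Jak1 exceeded Jak3 in all 13 libraries, by 1.63 to 5.64 times.

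The Stat5 pair differed in how evenly it was measured. Stat5a (NM_011488, chr11:100859351-100885169) and Stat5b (NM_011489, chr11:100780731-100859004) are neighbours whose nearest annotated ends are 346 bases apart, and they share much of their coding sequence. How the authors treated reads that fit both is not given in the sources used here, so the split between them is uncertain. Stat5b held 62.6, 160 and 144 CPM in Ly6D+Gfra2+ replicates 4, 5 and 6, against 81.4 to 99.7 CPM in Ly6D+Gfra2- cells and 65.2 to 97.2 CPM in Ly6D-Gfra2- libraries. Replicates 5 and 6 of Ly6D+Gfra2+ were above every other library, and replicate 4 was below all of them. The Stat5b difference between Ly6D+Gfra2+ and Ly6D-Gfra2- cells was 0.63 on the log2 scale (SE 0.34, 95% interval -0.09 to 1.34, edgeR adjusted p = 0.397).

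Stat5a averaged 40.5 ± 15.4 CPM in Ly6D+Gfra2+, 55.5 ± 13.1 CPM in Ly6D+Gfra2- cells and 51.4 ± 25.3 CPM in Ly6D-Gfra2- cells (SD, n = 3, 4 and 6). Its log2 differences were between -0.30 and 0.13, with the smallest edgeR adjusted p at 0.857. The highest library was Ly6D-Gfra2- replicate 1 at 95.01 CPM and the lowest Ly6D+Gfra2+ replicate 5 at 23.9 CPM. Per kilobase the ratio of Stat5b to Stat5a was 1.08, 4.98 and 1.98 in Ly6D+Gfra2+ replicates 4, 5 and 6. It was 1.06 to 1.58 in Ly6D+Gfra2- and 0.647 to 2.40 in Ly6D-Gfra2- libraries.

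**Figure D3:**
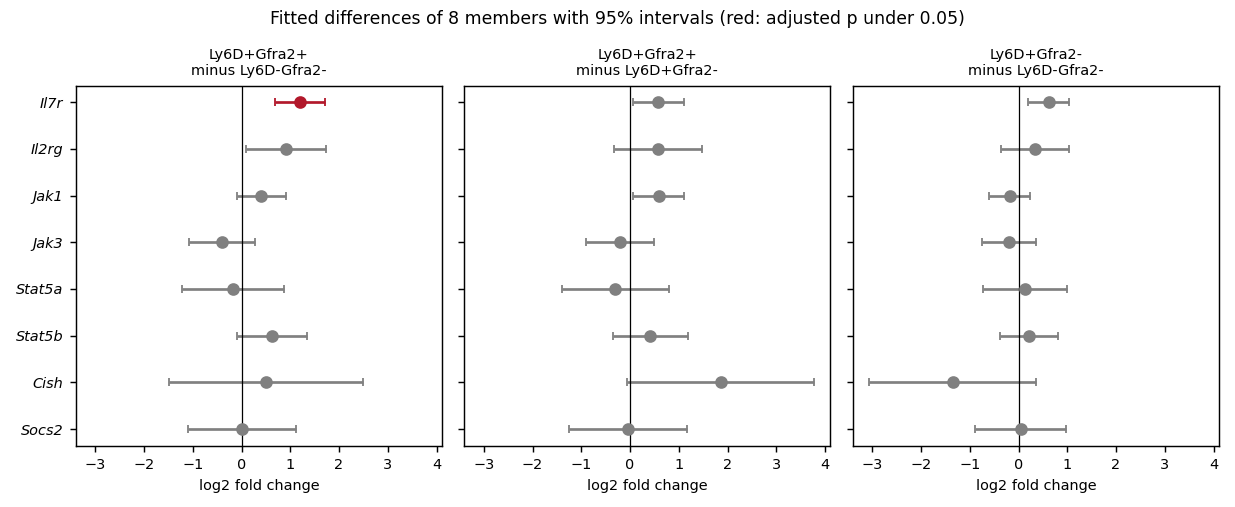
Log2 differences (x axis) with 95% intervals from the edgeR fit for 8 of the 9 genes (rows) in the 3 comparisons (panels); Socs1 is left out because several libraries hold 0 to 2 counts. The red point is the only call, Il7r between Ly6D+Gfra2+ and Ly6D-Gfra2- cells, at 1.19 with an interval of 0.68 to 1.70.

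The feedback inhibitors had levels that varied between libraries of the same group, and none of the 3 was called. Cish (NM_009895, chr9:107296659-107302784), which encodes a SH2-domain protein that binds activated cytokine receptors, is the gene whose start carries the paired motif shown above. It held 26.3, 66.2 and 54.7 CPM in Ly6D+Gfra2+ replicates 4, 5 and 6. It held 0.454, 7.66, 9.15 and 29.3 CPM in Ly6D+Gfra2- replicates 1, 2, 5 and 6, the first of these being 7 counts. In Ly6D-Gfra2- libraries the lowest, median and highest levels were 7.38, 18.3 and 43.0 CPM. Ly6D+Gfra2+ libraries were on the high side, yet all 3 ranges overlapped, and Ly6D-Gfra2- replicates 1 and 5 stood well above the other 4 of their group. Cish averaged 49.1 ± 20.5 CPM in Ly6D+Gfra2+ cells and 11.6 ± 12.4 CPM in Ly6D+Gfra2- cells (SD, n = 3 and 4), a log2 difference of 1.86 (SE 0.91, 95% interval -0.06 to 3.77, edgeR adjusted p = 0.391). Between Ly6D+Gfra2- and Ly6D-Gfra2- cells it was -1.35 (95% interval -3.06 to 0.35, adjusted p = 0.999). With 1 library left out, the first difference ran between 1.58 and 2.86, the highest without Ly6D+Gfra2- replicate 6. The second ran between -2.06 without that library and -0.79 without Ly6D+Gfra2- replicate 1.

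Socs1 (NM_001271603, chr16:10783808-10785536), an inhibitor that acts on the Jak kinases themselves, was low, with 2 counts or fewer in 5 of the 13 libraries. It had 10, 221 and 28 counts in Ly6D+Gfra2+ replicates 4, 5 and 6. It had 1, 26, 1 and 51 counts in Ly6D+Gfra2- replicates 1, 2, 5 and 6. The 6 Ly6D-Gfra2- libraries had 0, 0, 2, 6, 97 and 17 counts in replicates 1 to 6. A single library held most of the counts of Ly6D+Gfra2+ (replicate 5, 26.5 CPM) and of Ly6D-Gfra2- (replicate 5, 8.02 CPM). No comparison called Socs1 (edgeR adjusted p of 0.589 or more), and its fitted differences turn with the libraries used.

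Socs2 (NM_007706, chr10:95383903-95417321), a Stat5-induced inhibitor best known for restraining growth hormone signalling, had overlapping levels in the 3 groups. It averaged 25.3 ± 9.93 CPM in Ly6D+Gfra2+, 30.1 ± 11.5 CPM in Ly6D+Gfra2- cells and 28.7 ± 6.68 CPM in Ly6D-Gfra2- cells (SD, n = 3, 4 and 6). The log2 difference between Ly6D+Gfra2+ and Ly6D-Gfra2- cells was 0.01 with a 95% interval of -1.10 to 1.12 (edgeR adjusted p = 0.997). Ly6D-Gfra2- replicate 3 held 41.8 CPM, and without it the group averaged 26.1 ± 2.04 CPM (SD, n = 5).

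Over the 9 members, the median log2 difference was 0.50 between Ly6D+Gfra2+ and Ly6D-Gfra2- cells, where the median of all tested genes was 0.01. It was 0.42 against 0.03 between Ly6D+Gfra2+ and Ly6D+Gfra2- cells, and 0.13 against -0.01 between Ly6D+Gfra2- and Ly6D-Gfra2- cells. Each pair of these comparisons shares the libraries of 1 group. In the order given, the member medians are the values of single genes, none of them called. They are those of Cish (interval of the fit -1.48 to 2.49), Stat5b (-0.35 to 1.18) and Stat5a (-0.73 to 0.98). The medians also count Socs1, whose counts are too few for a direction. Whether the members as a set differ from all tested genes was not tested. The highest Pearson correlation of log2(CPM + 1) over the 13 libraries, which share sorted groups and prefixes, was 0.63, for Jak3 and Cish, among the 8 members that averaged 5 CPM or more. Socs1 was left out of these correlations.

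Genes around the pathway were read from lists chosen by name. The ligand genes were at or near 0: Il7 had 0 counts in Ly6D+Gfra2+ libraries and at most 0.508 CPM elsewhere, and Tslp had a total of 1 count over the 13 libraries together. Both were below the filter. Of 7 further receptor chains of the common gamma and TSLP families, 5 passed the filter and 0 were called in any comparison, where at most 1.39% of all tested genes were called. Crlf2, the second chain of the TSLP receptor, held 15.6, 44.5 and 64.9 CPM in Ly6D+Gfra2+ replicates 4, 5 and 6, against 4.14 to 11.8 CPM in Ly6D-Gfra2- libraries. These 2 groups did not overlap for Crlf2, as was so in either direction for 10.2% of tested genes. The log2 difference was 1.95 and was not called (SE 0.71, edgeR adjusted p = 0.203). Il2rb, a chain of the IL-2 and IL-15 receptors, had 3 counts in Ly6D+Gfra2+ replicate 6 and 0 in replicates 4 and 5, against 0.964 to 29.2 CPM in Ly6D+Gfra2- libraries (edgeR adjusted p = 0.116). Il4ra differed by -1.65 in that comparison (adjusted p = 0.375), and by -3.71 without Ly6D+Gfra2+ replicate 6, where it was called (edgeR adjusted p = 0.0198). Against Ly6D-Gfra2- cells it was likewise called without that library (-4.04, edgeR adjusted p = 0.00661, against 0.221 with all libraries). Replicate 6 held 47.2 CPM of Il4ra, against 5.955 and 2.992 CPM in replicates 4 and 5. Leaving it out removed the library nearest the other groups, so the gained calls add no support. Without it 184 and 372 of all genes were called in these comparisons, against 52 and 177 with all libraries. Il15ra was at 8.38 CPM or less in Ly6D+Gfra2- and 2.71 to 15.1 CPM in Ly6D-Gfra2- libraries (adjusted p = 0.999).

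Among 7 other Jak kinases and Stat factors, all tested, Tyk2 fell and 0 rose between Ly6D+Gfra2+ and Ly6D-Gfra2- cells. Tyk2, a Jak kinase of the interferon and IL-12 receptors, held 19.6, 9.33 and 20.8 CPM in Ly6D+Gfra2+ replicates 4, 5 and 6, against 51.7 to 99.2 CPM in Ly6D-Gfra2- libraries. The groups did not overlap, as was so in either direction for 10.2% of tested genes, and the log2 difference was -2.12 (SE 0.49, edgeR adjusted p = 0.0432). The call was kept only when Ly6D+Gfra2- replicate 1 or Ly6D+Gfra2+ replicate 6 was the library left out. Without any other library the adjusted p was up to 0.124, and it was 0.0666 when the library labelled Ly6D-Gfra2- replicate 3 was left out. The call was lost too within prefix T (0.172), with voom (0.331), with a replicate block (0.106) and with only the 2 groups fitted (adjusted p = 0.100). Against Ly6D+Gfra2- cells Tyk2 differed by -1.97 (adjusted p = 0.0915). Stat2, its partner in interferon signalling, differed by -1.60 there (adjusted p = 0.109, and 0.0381 without Ly6D+Gfra2- replicate 1) and by -1.16 against Ly6D-Gfra2- cells (adjusted p = 0.189). Replicate 1 held 54.1 CPM of Stat2, the lowest of the Ly6D+Gfra2- libraries, so the smaller p without it adds no support. Between Ly6D+Gfra2- and Ly6D-Gfra2- cells Stat2 differed by 0.43 (edgeR adjusted p = 0.999).

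Among inhibitors outside the 9 genes, 0 of 5 other SOCS genes and 0 of 10 phosphatase, PIAS and adaptor genes were called in any comparison. By edgeR at most 1.39% of all tested genes were called in a comparison. Lists this short with 0 calls are therefore no evidence that these genes do not change. Socs3, an inhibitor of gp130 receptors, held 55.7, 390 and 39.4 CPM in Ly6D+Gfra2+ replicates 4, 5 and 6, against 4.49 to 51.5 CPM in Ly6D-Gfra2- libraries. Replicate 5, also the highest library for Socs1 and Cish, stood far above the rest, and replicates 4 and 6 were near the top of the Ly6D-Gfra2- range (log2 difference 1.82, SE 0.64, edgeR adjusted p = 0.190). Socs3 was lower in prefix P than in prefix T in both groups that hold the 2 prefixes, for example at 4.87 and 4.97 CPM in Ly6D+Gfra2- replicates 1 and 2 against 58.0 and 50.2 CPM in replicates 5 and 6. Socs7 differed by -1.61 between Ly6D+Gfra2+ and Ly6D-Gfra2- cells (adjusted p = 0.257) and by -1.09 against Ly6D+Gfra2- cells (adjusted p = 0.520). Socs6 differed by 1.12 between Ly6D+Gfra2- and Ly6D-Gfra2- cells (edgeR adjusted p = 0.999). Sh2b3, the adaptor Lnk that restrains Jak signalling, differed by 0.67 between Ly6D+Gfra2+ and Ly6D-Gfra2- cells (adjusted p = 0.298), and Ptpn11 by 0.57 (adjusted p = 0.551). Ptprc, the phosphatase CD45, differed by -0.41 between Ly6D+Gfra2+ and Ly6D+Gfra2- cells (edgeR adjusted p = 0.366), and Pias3 by -1.66 (adjusted p = 0.591).

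Of 12 Stat5 target and survival genes, all tested, Bcl2 fell in Ly6D+Gfra2+ cells in both comparisons and 0 rose. Bcl2 encodes the protein that keeps mitochondria from releasing cell-death signals and is counted among the survival genes downstream of IL-7. It held 94.3, 51.1 and 245 CPM in Ly6D+Gfra2+ replicates 4, 5 and 6. It held 1319, 1045, 608 and 660 CPM in Ly6D+Gfra2- replicates 1, 2, 5 and 6, and 402, 760 and 1024 CPM as lowest, median and highest in Ly6D-Gfra2- libraries. The Ly6D+Gfra2+ libraries, whose mean Il7r level was highest, were all below every other library.

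The Bcl2 log2 difference was -2.32 against Ly6D+Gfra2- cells (SE 0.40, edgeR adjusted p = 0.0224) and -1.995 against Ly6D-Gfra2- cells (SE 0.38, adjusted p = 0.0170). Within prefix T the sizes stayed at -2.29 and -2.02, but neither was called (adjusted p = 0.193 and 0.116). The first call was lost without Ly6D+Gfra2- replicate 5 (0.0619) or its replicate 6 (0.0707), and the second without Ly6D-Gfra2- replicate 4 (edgeR adjusted p = 0.0638). Both were lost when only the 2 groups compared were fitted (adjusted p = 0.321 and 0.0737). Without Ly6D+Gfra2+ replicate 6, the highest of its group, the differences were -3.16 and -2.84 (edgeR adjusted p = 0.000319 and 0.000508). That library was the nearest to the other groups, so the smaller p without it adds no support. Myc, the growth regulator, differed by 0.78 and 0.67 in the same comparisons (edgeR adjusted p = 0.217 and 0.205). Ccnd3, a cyclin that IL-7 sustains in early B-lineage cells, differed by 0.92 between Ly6D+Gfra2- and Ly6D-Gfra2- cells, and Spry1 by -1.98 (edgeR adjusted p = 0.931 and 0.999). The library labelled Ly6D-Gfra2- replicate 3 held 349 CPM of Ccnd3, against 68.1 to 186 CPM in the other 5 of its group. Without it the Ccnd3 difference was 1.19, not called by edgeR (adjusted p = 0.246) but called by DESeq2 (0.00962, against 0.449 with that library). The library left out was the highest of its group, so the DESeq2 call adds no support.

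Of 11 transcription factors known to act on Il7r, all tested, Foxo1 rose in Ly6D+Gfra2+ cells in both comparisons and 0 fell. Foxo1, known to switch on Il7r in lymphocytes, held 639, 965 and 450 CPM in Ly6D+Gfra2+ replicates 4, 5 and 6. It held 138, 67.8, 193 and 222 CPM in Ly6D+Gfra2- replicates 1, 2, 5 and 6, and 35.0, 75.1 and 94.2 CPM as lowest, median and highest in Ly6D-Gfra2- libraries. The order of the group means was the same as for Il7r, and the Ly6D+Gfra2+ libraries overlapped no other. The log2 difference was 2.97 against Ly6D-Gfra2- cells (SE 0.36, edgeR adjusted p = 0.000627), a call kept in all 13 fits that left out 1 library. Against Ly6D+Gfra2- cells it was 1.82 (SE 0.38, edgeR adjusted p = 0.0471). That call was lost in 10 of 13 fits that left out 1 library, all but those without Ly6D-Gfra2- replicate 3, Ly6D+Gfra2- replicate 1 or Ly6D+Gfra2+ replicate 6, with adjusted p up to 0.142. It was also lost with voom (0.0774), with library size alone (0.069), with a replicate block (0.0583), with only the 2 groups fitted (0.51) and within prefix T (adjusted p = 0.119). Between Ly6D+Gfra2- and Ly6D-Gfra2- cells Foxo1 differed by 1.15 (edgeR adjusted p = 0.807). With the library labelled Ly6D-Gfra2- replicate 3 left out, that difference was 1.42 and was called (edgeR adjusted p = 0.0461). DESeq2 gave it an adjusted p of 0.113 with that library and 0.000403 without it, the second of these chosen after seeing the data. Leaving that library out widened the difference, so the Foxo1 calls without it add no support. Ets1 held 478, 76.5 and 360 CPM in Ly6D+Gfra2+ replicates 4, 5 and 6, against 77.8 to 135 CPM in Ly6D-Gfra2- libraries (log2 difference 1.70, SE 0.42, edgeR adjusted p = 0.0538). Against Ly6D+Gfra2- cells Ets1 differed by 1.45 (adjusted p = 0.193). Without Ly6D+Gfra2+ replicate 5, its lowest library in that group, Ets1 was called in both comparisons, at 2.15 and 1.91 (edgeR adjusted p = 0.00082 and 0.00841). In that fit 115 and 23 of all genes were called. The library left out was the one against the difference, so these Ets1 calls add no support. Gfi1, a repressor of Il7r, held 37.7 to 54.1 CPM in Ly6D+Gfra2+ cells, 0.195 to 26.6 CPM in Ly6D+Gfra2- cells and 9.78 to 40.8 CPM in Ly6D-Gfra2- cells. It differed by 2.12 between Ly6D+Gfra2+ and Ly6D+Gfra2- cells (SE 0.94, edgeR adjusted p = 0.349) and by -1.61 between Ly6D+Gfra2- and Ly6D-Gfra2- cells (edgeR adjusted p = 0.999).

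In the phosphoinositide 3-kinase, adaptor and Ras branch, Pik3cd encodes the leukocyte catalytic subunit. It held 371, 578 and 248 CPM in Ly6D+Gfra2+ replicates 4, 5 and 6. It held 292, 183, 188 and 194 CPM in Ly6D+Gfra2- replicates 1, 2, 5 and 6, and 126, 159 and 232 CPM as lowest, median and highest in Ly6D-Gfra2- libraries. The Ly6D+Gfra2+ libraries were above all Ly6D-Gfra2- libraries and overlapped the Ly6D+Gfra2- range at its top. Between Ly6D+Gfra2+ and Ly6D-Gfra2- cells, 10.2% of tested genes did not overlap in either direction. Pik3cd differed by 1.17 between Ly6D+Gfra2+ and Ly6D-Gfra2- cells (SE 0.29, edgeR adjusted p = 0.0544, and 0.0205 without Ly6D+Gfra2+ replicate 6) and by 0.36 between Ly6D+Gfra2- and Ly6D-Gfra2- cells (adjusted p = 0.999). Replicate 6 was the lowest Ly6D+Gfra2+ library for Pik3cd, so the smaller p without it adds no support. Rasgrp1, an activator of Ras in lymphocytes, was at 1.32, 1.73 and 92.4 CPM in Ly6D+Gfra2+ cells and at 0.974 CPM or less in Ly6D+Gfra2- libraries (edgeR adjusted p = 0.224).

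**Figure D4:**
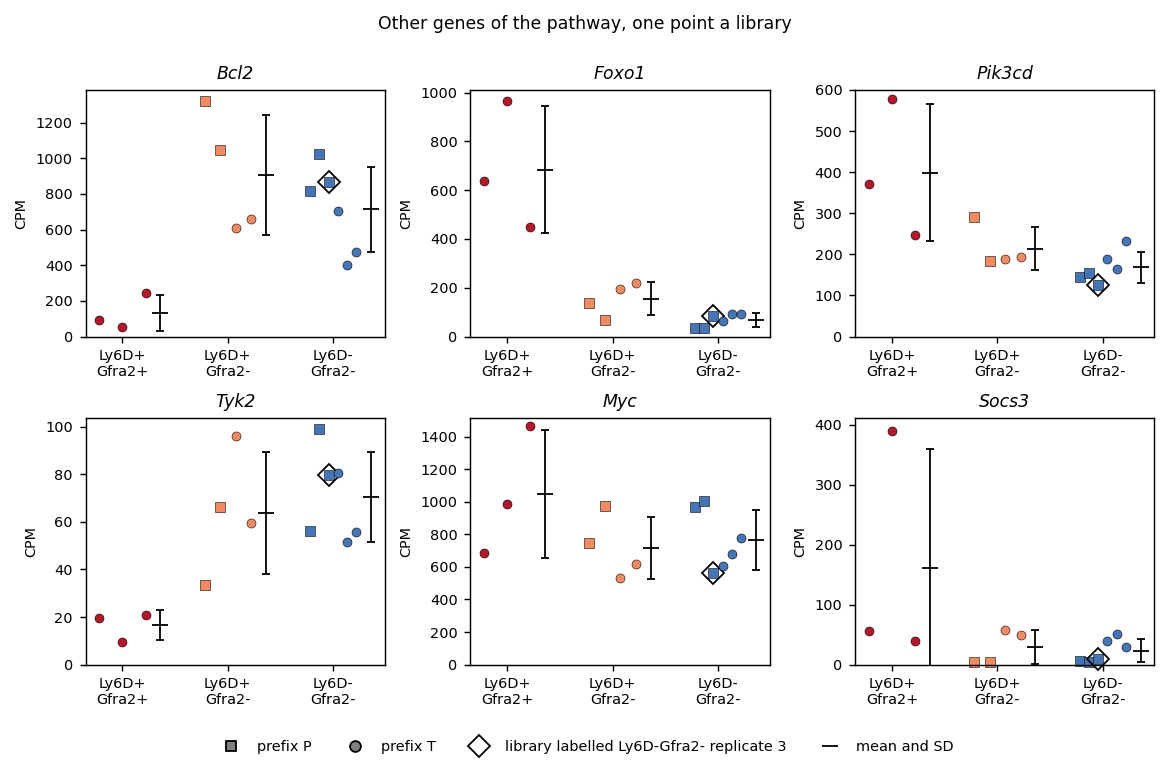
CPM (y axis from 0) of Bcl2, Foxo1, Pik3cd, Tyk2, Myc and Socs3 in the 13 libraries, drawn as for the 9 genes with the mean ± SD of each group. Foxo1 (450 to 965 CPM) in Ly6D+Gfra2+ libraries lies above all others, and Bcl2 (51.1 to 245 CPM) and Tyk2 (9.33 to 20.8 CPM) lie below.

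Sums of markers listed for later B cells and for granulocytes and monocytes differed between the groups, and their part in the differences above was not tested. In bulk libraries, transcripts of these lists in the sorted progenitors themselves and in other cells cannot be told apart. The summed level of 6 markers of later B cells was 204 to 291 CPM in Ly6D+Gfra2+, 10.96 to 116 CPM in Ly6D+Gfra2- cells and 10.1 to 48.5 CPM in Ly6D-Gfra2- libraries. Ms4a1, a marker of mature B cells, was at 0 in every library. Of the 5 that were tested, Vpreb1, part of the surrogate light chain, rose between Ly6D+Gfra2+ and Ly6D-Gfra2- cells, with 37.1, 42.0 and 20.4 CPM in Ly6D+Gfra2+ replicates 4, 5 and 6 against 2.53 CPM or less in Ly6D-Gfra2- libraries (edgeR adjusted p = 0.0470). Vpreb1 shares sequence with Vpreb2, so its counts are uncertain, and its call was lost in 9 of 13 fits that left out 1 library, with adjusted p up to 0.129. Those 9 fits left out Ly6D+Gfra2+ replicate 4 or 5, Ly6D+Gfra2- replicate 1, 5 or 6, or Ly6D-Gfra2- replicate 1, 4, 5 or 6. Pax5 was at 53.9 to 101 CPM in Ly6D+Gfra2+, 0.710 CPM or less in Ly6D+Gfra2- and 6.62 CPM or less in Ly6D-Gfra2- libraries, and was not called (edgeR adjusted p = 0.0569 against Ly6D+Gfra2- and 0.0643 against Ly6D-Gfra2-). Its 6.62 CPM was in the library labelled Ly6D-Gfra2- replicate 3, the other 5 held 0.357 CPM or less, and without that library Pax5 was called against Ly6D-Gfra2- cells (edgeR adjusted p = 0.000313). The library left out was the one against the difference, so this Pax5 call adds no support. Cd79b differed by 0.97 between Ly6D+Gfra2- and Ly6D-Gfra2- cells (edgeR adjusted p = 0.999).

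The 7 granulocyte and monocyte markers summed to 211 to 444 CPM in Ly6D+Gfra2+, 498 to 622 CPM in Ly6D+Gfra2- cells and 692 to 1447 CPM in Ly6D-Gfra2- libraries, ranges that do not overlap. Of these 7, all tested, S100a9, Mpo and Itgam fell between Ly6D+Gfra2+ and Ly6D-Gfra2- cells. Mpo, the myeloid peroxidase, held 97.8, 312 and 309 CPM in Ly6D+Gfra2+ replicates 4, 5 and 6, against 432 to 1125 CPM in Ly6D-Gfra2- libraries (log2 difference -1.75, edgeR adjusted p = 0.0325, up to 0.0886 without Ly6D-Gfra2- replicate 4, 5 or 6 or Ly6D+Gfra2- replicate 6). Itgam, the integrin CD11b, differed by -2.87 (edgeR adjusted p = 0.0157, and 0.0508 without Ly6D-Gfra2- replicate 4) and by -2.30 against Ly6D+Gfra2- cells (adjusted p = 0.0711, and 0.0381 without Ly6D+Gfra2- replicate 1 or 0.0472 without Ly6D+Gfra2+ replicate 4). Leaving out either of the last 2 libraries widened the difference, to -2.46 and -2.72, so these gained Itgam calls add no support. Within prefix T neither Mpo nor Itgam was called. S100a9 had a total of 1 count over the Ly6D+Gfra2+ libraries together, and 2137 of its 2371 counts in Ly6D-Gfra2- cells lay in replicate 5 (edgeR adjusted p = 0.0417, up to 0.257 with a library left out, the call lost in 9 of 13 such fits). Lyz2 differed by -1.27 between Ly6D+Gfra2- and Ly6D-Gfra2- cells (adjusted p = 0.807). The markers did not all go the way of their sum: between Ly6D+Gfra2+ and Ly6D+Gfra2- cells the fitted differences of Lyz2 (0.83), Csf1r (0.77) and Elane (3.32) were positive, none of them called (edgeR adjusted p = 0.465, 0.677 and 0.648).

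The 8 erythroid and megakaryocyte markers summed to 0 to 50.05 CPM in Ly6D+Gfra2+, 1.31 to 29.8 CPM in Ly6D+Gfra2- cells and 3.11 to 244 CPM in Ly6D-Gfra2- libraries, the highest being replicate 5, and of the 5 tested 0 were called. Pf4 was at 0 in every library. Hbb-bs was at 8.13 CPM or less in Ly6D+Gfra2+ libraries and up to 141 CPM in Ly6D-Gfra2- libraries. Itga2b had 0 counts in Ly6D+Gfra2+ libraries and reached 4.18 CPM in Ly6D-Gfra2- libraries. Klf1, an erythroid transcription factor, was at 35.3 CPM in Ly6D+Gfra2+ replicate 6 and 0 in replicates 4 and 5, against 4.96 CPM or less in Ly6D-Gfra2- libraries (edgeR adjusted p = 0.543). The 7 T and NK cell markers summed to 14.7 to 139 CPM in Ly6D+Gfra2+, 55.0 to 83.6 CPM in Ly6D+Gfra2- cells and 60.02 to 76.8 CPM in Ly6D-Gfra2- libraries, mostly Nkg7, with Cd3g and Ncr1 at 0 in the Ly6D+ groups and 0 of 3 tested genes called. Klrb1c was at 4.76 CPM or less in every library, and Cd4 was at 2.92 CPM or less in Ly6D+Gfra2+ and 5.47 to 16.9 CPM in Ly6D-Gfra2- libraries. Of the 5 CLP markers, Cd93 rose by 0.71 between Ly6D+Gfra2+ and Ly6D-Gfra2- cells (SE 0.16, edgeR adjusted p = 0.0345, up to 0.120 with a library left out, the call lost in 7 of 13 such fits and within prefix T). Cd27 differed by -0.57 in that comparison (edgeR adjusted p = 0.193), and Kit by -0.76 between Ly6D+Gfra2- and Ly6D-Gfra2- cells (adjusted p = 0.881).

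As a description, the genes whose log2(CPM + 1) followed Il7r most closely over the 13 libraries, among 10412 genes averaging 5 CPM or more, were Dok3 (Pearson r = 0.90), Blk (0.89), Cecr2 (0.89), Pik3r6 (0.86) and Mgst2 (0.85). Dok3 encodes an adaptor of lymphocyte and myeloid receptors, Blk a Src-family kinase of B cells, and Pik3r6 a regulatory subunit of phosphoinositide 3-kinase gamma. For Cish they were Map4k3 (0.91), Psmb9 (0.88), Abhd5 (0.88), Deaf1 (0.88) and Pitpnm1 (0.88). For Socs2 they were Upf3b (0.86), Ccdc15 (0.82), Srek1 (0.81), Ggct (0.80) and Armt1 (0.78). The libraries share sorted groups, prefixes and depth, and no other member was among these genes.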

How the data were processed

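Sorted CLP of wild-type C57BL/6 mice were profiled by RNA sequencing of total RNA, extracted with Qiagen RNeasy Micro columns and turned into libraries by NuGEN kits (Ovation RNA-Seq, then Ovation Ultralow V2), per the labels' protocols. The authors deposited raw counts per RefSeq identifier, 1 file per library, per the file headers. The submitters' processing notes name FastQC, HISAT, TopHat, HOMER, DESeq and the mm10 build, without role or order. Strand setting, multi-mapping rule and annotation version are not given in the sources used here, so antisense and overlapping reads cannot be told apart.

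Identifiers were named from RefSeq for GRCm38.p6 (23815 of 24072), then GENCODE M21 (144), and 113 had no name. Counts of all 13 libraries were tested in 1 fit with edgeR 4.0.16 (R 4.3.3; glmQLFit and glmQLFTest, two-sided) with terms for group and prefix, TMM scaling and filterByExpr (minimum count 10, minimum total 15). The test was also run on simulated data. CPM were computed from the deposited counts; per-kilobase levels used GENCODE transcript lengths. No pair of libraries matched within sampling noise. Alternatives were DESeq2 1.42.0, limma 3.58.1 voom, other scalings and filters, no prefix term, a replicate block, subsets by prefix or group, and each library left out. Genes named are the 9 members, every called gene of each list with the 2 smallest p per comparison, and the 5 most correlated with Il7r, Cish and Socs2 (r of log2(CPM + 1), pseudocount 1). Members and lists were chosen with earlier results of these data known. Ly6g, Trac, Ighm and Igkc are not analysed here. Some genes that the naming rule picks are not reported here. Intervals of a fit are 95%.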

Additional observations from a re-analysis of the deposited data

Results flagged for a closer look

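In 36 groups of 4 to 6 libraries, 1 library stood apart from the rest by Dixon's test in 7. For normally spread values chance gives about 1 group in 20. CPM near 0 are skewed and flagged more readily, so the number of flags cannot be set against that rate. Socs1 in Ly6D-Gfra2- replicate 5 was at 8.02 CPM, with the next library at 2.21 CPM, and S100a9 in the same library was at 177 CPM, with the next at 18.0 CPM. Socs2 in the library labelled Ly6D-Gfra2- replicate 3 was at 41.8 CPM, with the next at 28.1 CPM, and Vpreb1 there was at 2.53 CPM, with the next at 0.476 CPM. Vpreb1 in Ly6D+Gfra2- replicate 1 was at 13.4 CPM, with the next at 1.01 CPM. Cd93 in Ly6D+Gfra2- replicate 6 was the lowest of its group at 1720 CPM, with the next at 2280 CPM. S100a9 in Ly6D+Gfra2- replicate 6 was at 0.101 CPM, which is 1 count, where the other 3 libraries had 0.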

How the results depend on the processing

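Il7r kept a positive difference in all 24 alternatives between Ly6D+Gfra2+ and Ly6D-Gfra2- cells, between 0.94 and 1.34 on the log2 scale, and was called in 19 (adjusted p 7.88e-05 to 0.0997). The count of members called there went to 0 with library size alone, and to 0 to 1 when each library was left out. Same-numbered libraries correlated at -0.04 to 0.14 in their deviations from group means, and 7 of 18 checks found the own number best. These deviations come from few libraries per group and still carry the prefix. The check therefore cannot decide whether the numbers in the library names pair the libraries. With a replicate block in place of the prefix, Il7r differed by 1.24 (edgeR adjusted p = 0.0164) and members called stayed at 1, 0 and 0 in the comparisons of Ly6D+Gfra2+ with Ly6D-Gfra2-, Ly6D+Gfra2+ with Ly6D+Gfra2-, and Ly6D+Gfra2- with Ly6D-Gfra2-.

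Only uncalled differences changed sign; the cause was not tested. Between Ly6D+Gfra2- and Ly6D-Gfra2- cells: Il2rg -0.0473 with voom; Jak1 0.0432 in prefix T; Stat5a -0.0153 in prefix P and -0.233 there without the library labelled replicate 3; Socs1 -0.373 with voom, -0.147 with no prefix term and -0.465 in prefix T; Socs2 -0.0246 with library size alone and -0.114 in prefix T. Between Ly6D+Gfra2+ and Ly6D+Gfra2- cells, Socs1 was -0.0971 with library size alone, -0.125 with the block and -0.0522 with DESeq2 without the library labelled replicate 3, and Socs2 was 0.0631 with only the compared groups and 0.0515 in prefix T. Between Ly6D+Gfra2+ and Ly6D-Gfra2- cells, Stat5a was 0.0281 with voom, and Socs2 was -0.212 with voom, -0.275 with library size alone, -0.0022 with no filter, -0.18 with no prefix term, -0.0293 with the block, -0.055 with only the compared groups and -0.0622 in prefix T. The 2 fits that combine prefix P or DESeq2 with leaving out that library were chosen after seeing the data.

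Leaving out each library in turn gave, between Ly6D+Gfra2- and Ly6D-Gfra2- cells, -0.211 to 0.582 for Il2rg, -0.0275 to 0.381 for Stat5a, -0.116 to 2.81 for Socs1 and -0.178 to 0.185 for Socs2. Between Ly6D+Gfra2+ and Ly6D+Gfra2- cells it gave -0.331 to 0.0818 for Jak3, -2.12 to 1.73 for Socs1 and -0.26 to 0.25 for Socs2. Between Ly6D+Gfra2+ and Ly6D-Gfra2- cells it gave -0.447 to 0.116 for Stat5a, -0.237 to 3.42 for Socs1 and -0.211 to 0.299 for Socs2.

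Counts of all called genes moved most. Between Ly6D+Gfra2+ and Ly6D-Gfra2- cells, 177 were called (118 higher, 59 lower), 111 with library size alone (45 higher, 66 lower), 940 by DESeq2 (378 higher, 562 lower), 109 with voom (105 higher, 4 lower), 318 with no filter, 92 with the block, 72 with only the compared groups, 62 in prefix T (54 higher, 8 lower) and 49 to 372 with a library left out. Between Ly6D+Gfra2+ and Ly6D+Gfra2- cells, 52 were called (26 higher, 26 lower), 48 with library size alone (15 higher, 33 lower), 700 by DESeq2, 25 with voom (24 higher, 1 lower), 164 with no filter, 103 with no prefix term, 25 with the block, 8 with only the compared groups, 9 in prefix T and 12 to 184 with a library left out. Between Ly6D+Gfra2- and Ly6D-Gfra2- cells, 0 were called, 54 by DESeq2, 9 with no filter, 8 with the block, 1 with voom, 1 in prefix T and 16 without the library labelled replicate 3. The Ly6D+Gfra2+ group has 3 libraries, all of prefix T, and counts of Socs1 are too few for a direction.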
